A study of Mus musculus with 11 samples.

Results

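Mouse chromosome 7 was read from end to end in 11 mammary tumours. It was represented by every genomic probe that the array places on this chromosome, 9833 of 170305 probes on the array. They span chr7:3131659-152520747 of mouse build mm9 and fill 138 bins of 1 Mb with at least 5 probes each, of 2538 such bins on 20 chromosomes. Stretches without such a bin run from 8 to 10, 21 to 24, 33 to 34 and 40 to 46 Mb. The array annotation gives 6724 of the probes 1 of 1583 gene names. It does not say whether a probe lies in an exon, an intron or an untranslated region, and no other mm9 annotation was used here.

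The tumours arose in Pik3ca H1047R mice of a mixed FVBN and Bl6 strain and form 1 group of 11 biological replicates, tumours 1 to 11. Each tumour's DNA, labelled in Cy5, was hybridised together with liver DNA of the same animal, labelled in Cy3, so that the liver carries the same germline genotype. The labels give neither the promoter or Cre that drives the mutant, nor the age of the animals, nor the share of tumour cells in each sample. The values are log2 ratios of tumour over liver intensity, minus the median of the array, so that 0 is the middle of each tumour's own genome.

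Pik3ca encodes the catalytic subunit of a phosphoinositide 3-kinase, which signals from growth factor receptors to the AKT kinases, and H1047R is an activating change in its kinase domain. In comparative genomic hybridisation a chromosome with fewer copies in the tumour gives a ratio below 0. In bulk DNA a loss in few cells and a smaller loss in many cells cannot be told apart. Mouse chromosome 7 carries genes of growth factor and AKT signalling, large clusters of odorant and vomeronasal receptor genes, the kallikrein proteases and several imprinted domains, in which only the maternal or only the paternal copy is used.

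The probes below carry the extremes of the values given further on. They are the first and last probe of the stretch at the start of the chromosome, the lowest probe of each of the genes Ccdc81, Ethe1, Apbb1 and Zc3h4, the lowest probe of a short deep loss in tumour 1, and the brightest and dimmest probes of the chromosome. Each is given 5′ to 3′ as the scanner files hold it, with G and C in capitals, because GC content is 1 of the properties compared with the ratios.
Speer9-ps1, chr7:3131659-3131718: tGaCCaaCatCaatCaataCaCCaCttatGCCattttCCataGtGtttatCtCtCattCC
Prkcc, chr7:3326857-3326916: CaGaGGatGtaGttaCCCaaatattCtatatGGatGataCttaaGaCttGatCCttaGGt
Zc3h4, chr7:17017736-17017795: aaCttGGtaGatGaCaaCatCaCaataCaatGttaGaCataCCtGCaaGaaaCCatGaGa
Ethe1, chr7:25381874-25381933: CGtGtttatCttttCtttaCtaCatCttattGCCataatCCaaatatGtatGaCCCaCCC
Brightest, no gene name, chr7:34262201-34262257: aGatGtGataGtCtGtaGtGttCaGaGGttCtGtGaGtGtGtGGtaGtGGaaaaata
Ccdc81, chr7:97038378-97038437: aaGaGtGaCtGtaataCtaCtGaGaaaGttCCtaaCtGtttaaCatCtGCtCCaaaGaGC
Dimmest, no gene name, chr7:110514310-110514369: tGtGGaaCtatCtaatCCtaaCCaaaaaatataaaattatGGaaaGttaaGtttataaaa
Apbb1, chr7:112712653-112712712: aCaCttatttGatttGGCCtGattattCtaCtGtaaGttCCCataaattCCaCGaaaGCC
Ap2a2, chr7:148766983-148767042: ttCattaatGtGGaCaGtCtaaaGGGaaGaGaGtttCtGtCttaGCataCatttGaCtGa

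Brightness is the mean log2 signal of both channels, relative to the array median and averaged over arrays. The printed probes run from 21.7% GC in the dimmest to 40.4% in the brightest, and the median probe of chromosome 7 has 36.7% GC, as does the median probe of the whole array. The dimmest probe read between -2.52 in tumour 1 and -0.0084 in tumour 3 (mean -0.83). The brightest read between -0.15 in tumour 11 and 1.44 in tumour 9 (mean 0.46).

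The arrays differ in quality. The noise SD between neighbouring probes of the genome was 0.55 in tumour 9 and 0.51 in tumour 11, and between 0.13 and 0.28 in the others. Over all probes the array of tumour 11 correlated at -0.60 with tumour 4, -0.61 with tumour 5, -0.65 with tumour 9 and -0.32 with tumour 10. It correlated at 0.25 with tumour 6 and 0.078 with tumour 1, and between -0.22 and -0.036 with tumours 2, 3, 7 and 8. The labels give it the same dyes as the others, but with the negative correlations its direction is not settled. Results are also given with its sign turned. That turn was chosen from these same data, so calls gained with it are a description and no support for it. Turning also reverses its brightness pattern. On chromosome 7, probes above minus below the median brightness read -0.49 in tumour 11, 0.61 in tumour 9 and between -0.0053 and 0.31 in the others. The arrays lie on 3 slides, with tumours 2, 3 and 8 on slide 1, tumours 4, 7, 9 and 11 on slide 2, and tumours 1, 5, 6 and 10 on slide 3. On chromosome 7 the array of tumour 2 has 152 spots with a log ratio of exactly 0, against at most 24 in any other. Of its chromosome 7 spots 8.44% were not well above background, against 13.4% in tumour 9. No spot was saturated, and the number of arrays, 1 per tumour, limits the precision of all means.

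On average over the 11 tumours, chromosome 7 was lower than in the livers. Its mean was deepest in tumour 1 at -0.37, followed by tumour 7 at -0.32. Tumours 3, 2, 8 and 6 read -0.16, -0.16, -0.15 and -0.13. Tumours 4, 9, 10 and 5 lay close to 0, at -0.033, -0.025, -0.015 and -0.0051, and tumour 11 read 0.016. As a ratio of tumour over liver signal this is 0.774 for tumour 1, 0.802 for tumour 7, 0.911 for tumour 6 and 0.996 for tumour 5. The mean over tumours was -0.12 ± 0.13 (SD, n = 11), below 0 in 10 of 11 (exact two-sided sign-flip permutation test over tumours, p = 0.00391, adjusted p = 0.0260 over 20 chromosomes). Of the 20 chromosomes 3 passed (15%), and chromosome 7 was the one of these 3 that was lower. With tumour 11 turned the mean was -0.13 (adjusted p = 0.00977).

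**Figure D1:**
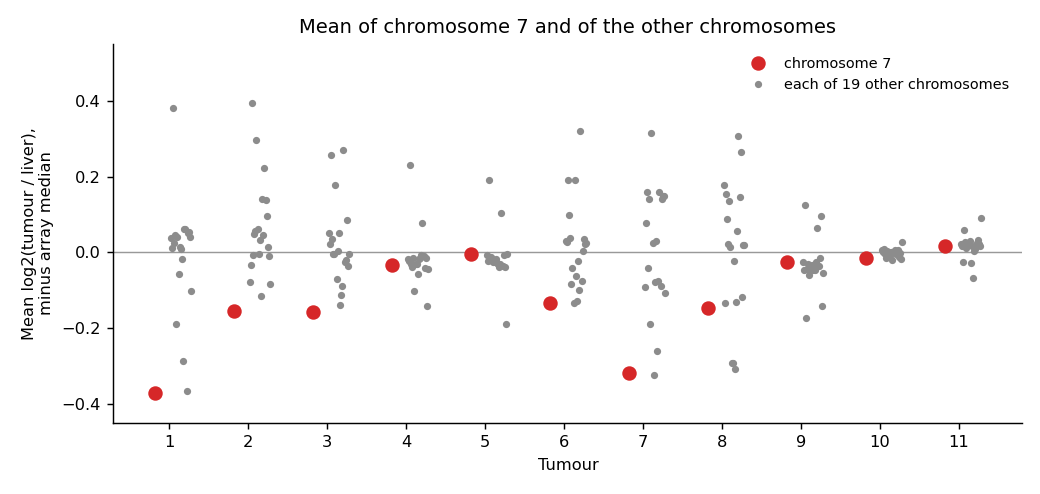
Mean log2 ratio of tumour over liver, minus the array median, for chromosome 7 (red) and each of 19 other chromosomes (grey) in tumours 1 to 11. Chromosome 7 lies between -0.37 and -0.13 in tumours 1, 2, 3, 6, 7 and 8 and within 0.033 of 0 in the other 5.

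The call on the chromosome mean was lost when any 1 of 6 tumours was left out, among them tumours 4 and 9, which lay near 0. With fewer tumours the permutation test also has fewer sign patterns. Without tumour 1, 3, 4, 6, 8 or 9 the adjusted p of the exact permutation test was 0.0521, with means from -0.13 to -0.098, and without each of the other tumours it lay between 0.0195 and 0.0391. The slide means were -0.15 ± 0.0053 on slide 1 (SD, n = 3), -0.090 ± 0.15 on slide 2 (n = 4) and -0.13 ± 0.17 on slide 3 (n = 4), and limma with a random effect of slide gave an adjusted p of 0.0158. That limma fit estimated the slide correlation at -5.5e-05. It is a different test from the permutation test, so the adjusted p of the 2 are not comparable. After a fit on probe brightness in each array, added after seeing the data, the mean was -0.11 and its adjusted p 0.143.

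Within each tumour, chromosome 7 can be set against that tumour's other chromosomes. It was the lowest of the 20 chromosomes in tumours 1, 2, 3 and 6, and the second lowest in tumour 7 behind chromosome 10. In tumour 6 chromosome 9 was almost as low, at -0.1346 against -0.1349. Counted from the lowest, chromosome 7 was 4th in tumours 8 and 10, 7th in tumours 4 and 11, 16th in tumour 9 and 17th in tumour 5. In tumours 5 and 9, at -0.0051 and -0.025, it lay above the median of the other chromosomes, at -0.024 and -0.040. A tumour was counted as having lost the chromosome as a whole where segments with a mean of -0.2 or lower cover at least 80% of its probes. That held in tumours 1 and 7, with 99.8% and 98.8% of the probes, so the word loss applies to the whole chromosome in 2 of 11 tumours by this threshold. In tumour 1 chromosome 7 stood at -0.37, against -0.36 for chromosome 16, its other whole loss. In tumour 7 chromosome 7 stood at -0.32, against -0.32, -0.26 and -0.19 for chromosomes 10, 13 and 6, also lost as a whole. Tumour 8 had chromosome 7 at -0.15, against its whole losses of chromosomes 9, 10 and 12 at -0.29, -0.29 and -0.31. At a threshold of -0.15 tumour 3 was added.

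In the tumours with the lowest chromosome means all or nearly all bins were below 0. In tumours 1, 3, 7 and 8 all 138 bins of 1 Mb lay below 0, as did 137 bins in tumour 2 and 136 in tumour 6. The bins of tumour 1 ran from -0.50 to -0.28, and those of tumour 7 from -0.42 to -0.11. Tumour 3 ran from -0.25 to -0.070, and tumour 8 from -0.24 to -0.023. The SD between bins within 1 tumour was lowest in tumour 3 at 0.029, was 0.043 in tumour 1 and 0.050 in tumour 7, and was highest in tumour 11 at 0.11. The median over the other chromosomes was 0.063 in tumour 3, 0.054 in tumour 1, 0.043 in tumour 7 and 0.11 in tumour 11. In tumours 4, 5, 9, 10 and 11 the bins lay on both sides of 0, with 87, 70, 81, 82 and 56 of 138 below it.

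**Figure D2:**
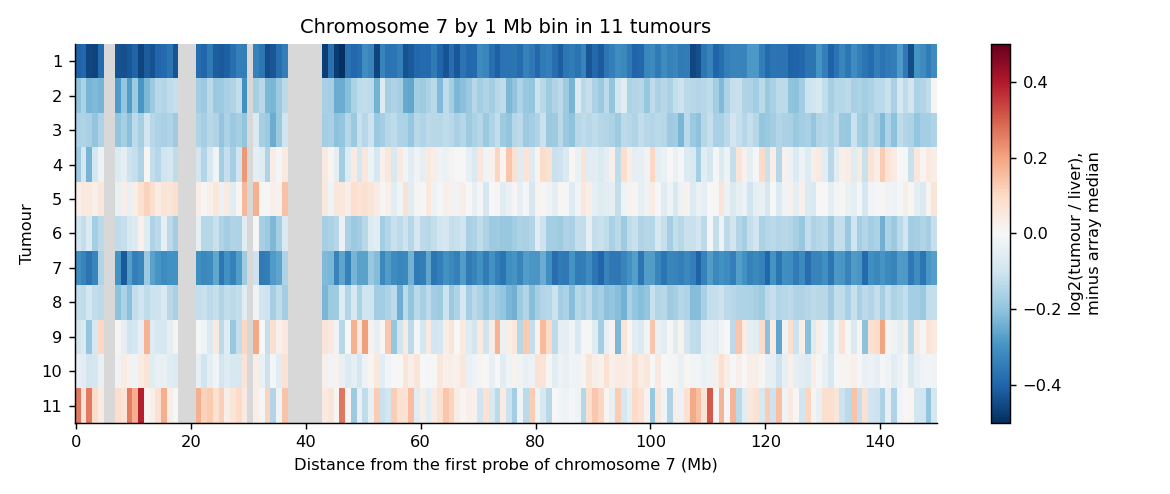
Mean log2 ratio of tumour over liver, minus the array median, in each 1 Mb bin of chromosome 7 (x axis, distance from the first probe in Mb) for tumours 1 to 11 (rows). Blue is lower in the tumour, red is higher, and grey marks stretches without a bin of at least 5 probes. Tumours 1 and 7 are blue from end to end, and tumours 4, 5, 9, 10 and 11 show both colours.

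Proximal and distal bins, divided at the middle of the chromosome, differed little within a tumour. Proximal minus distal was lowest in tumour 2 at -0.040 and highest in tumours 5 and 11 at 0.047, and it was -0.035 in tumour 1 and 0.031 in tumour 7. Across bins the correlation of the ratio with position was 0.48 in tumour 1, 0.46 in tumour 2 and -0.50 in tumour 5 (n = 138 bins, which share their array and its noise). These gradients thus ran in opposite directions in different tumours.

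Of the 138 bins of chromosome 7, 74 were called lower and 0 higher in limma over all 2538 bins (a call needed an adjusted p under 0.05 and a mean at least 0.1 away from 0). That is 53.6% of the bins, against 3.47% called lower and 9.93% called higher over all bins, and 0.583% called lower on the other chromosomes. At an unadjusted p below 0.05, 128 bins were lower and 0 higher. Bins at this unadjusted threshold were counted on chromosome 7 only, so no share over all bins stands beside them. The lowest bin, at 28 to 29 Mb with the genes Itpkc, Numbl and Ltbp4 among others, averaged -0.16 ± 0.15 (SD, n = 11, adjusted p = 0.0111). The bins at 36 to 37 Mb and 30 to 31 Mb also averaged -0.16. All bin means lay below 0. The highest was that at 34 to 35 Mb with the androgen-binding protein genes Abpz and Abpb, at -0.028 ± 0.15 (adjusted p = 0.702), followed by 39 to 40 Mb at -0.047 and 32 to 33 Mb at -0.049.

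The bins called and not called differ little in depth. Called bins had means from -0.16 to -0.10 (median -0.13), and the 64 bins not called had means from -0.14 to -0.028 (median -0.11), with a median SE of 0.039 over all bins. Called bins alternate with others along the whole chromosome, and the longest unbroken run of called bins is 5 bins, from 86 to 91 Mb. The SD of the 138 bin means was 0.023, and the median SD between tumours in a bin was 0.14.

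The number of called bins rests on the tumours with the deepest values. It was 25 without tumour 1, 37 without tumour 2, 32 without tumour 3, 30 without tumour 6, 21 without tumour 7 and 29 without tumour 8. With tumour 11 turned it was 83, of which 59 were among the 74.

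**Figure D3:**
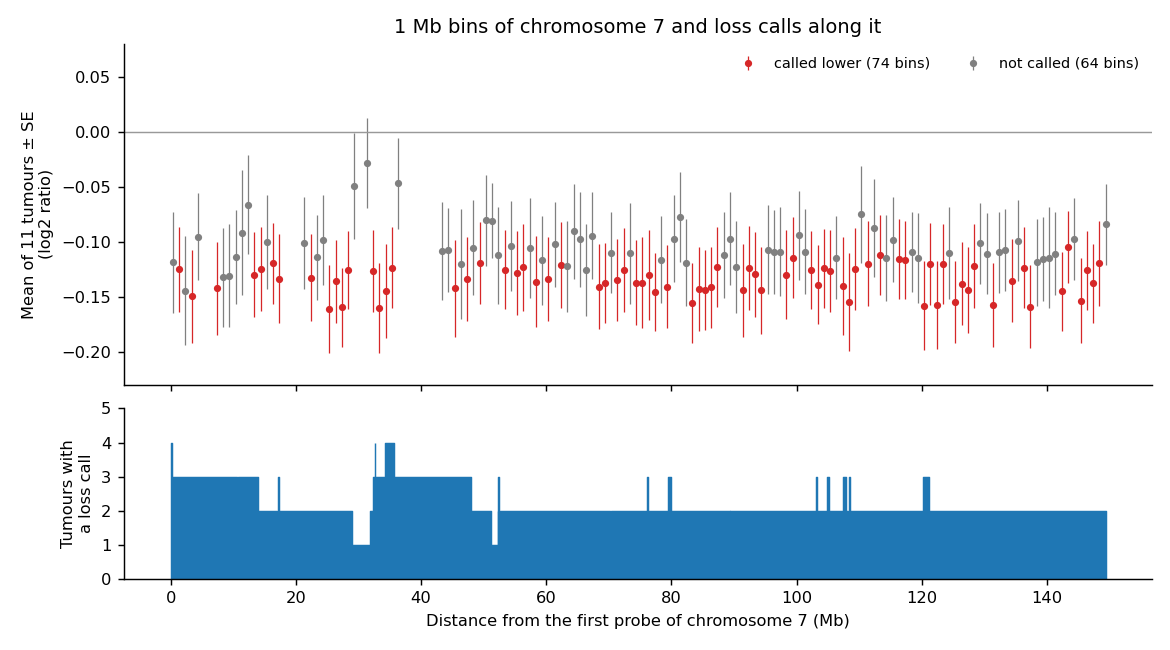
Top, mean ± SE over 11 tumours of each 1 Mb bin of chromosome 7 (log2 ratio), red where called lower and grey where not called. Bottom, the number of tumours with a loss call at each distance from the first probe. All means lie between -0.16 and -0.028, and the number of tumours is 2 over most of the length and reaches 4 in 3 places.

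Genes were read as the mean of their probes, and 557 of the 1583 gene names on chromosome 7 have the 3 probes needed for the test. Of these, 119 were called lower and 0 higher in limma over 9377 genes. That is 21.4% of the genes, against 2.29% called lower and 4.6% called higher over all genes. At an unadjusted p below 0.05, 355 were lower and 1 higher, again counted on chromosome 7 only. The median gene of chromosome 7 averaged -0.12, against -0.011 for the median gene of the genome, and 538 of the 557 means lay below 0. The count of 119 was 239 with tumour 11 turned, and 100 of the 119 remained. It was 35, 38, 18, 54, 73, 26, 34 and 44 without tumours 1 to 8 in turn, and 265 without tumour 11.

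In growth factor, PI3K, AKT and RAS signalling, 16 of 19 listed genes had a probe on chromosome 7 and 10 were tested. Pak4, a p21-activated kinase, was called lower and 9 were not called. Over all tested genes of the chromosome the share called lower was 21.4%, or 119 of 557. Pak4 was lowest in tumour 7 at -0.29 and highest in tumour 11 at 0.075, with its median at -0.18 and a mean of -0.16 ± 0.10 (SD, n = 11, adjusted p = 0.0261), below 0 in 10 of 11. The call was lost without tumour 1, 2, 3, 6, 7 or 8 (adjusted p from 0.0516 to 0.0684). Akt2, an AKT kinase downstream of PI3K, averaged -0.15 ± 0.14 (adjusted p = 0.0554). Its lowest value was -0.32 in tumour 1 and its highest 0.17 in tumour 11. The related kinase Pak1 averaged -0.15 ± 0.15 (adjusted p = 0.0546), and Eef2k, which phosphorylates a translation elongation factor, averaged -0.16 ± 0.21 (adjusted p = 0.0901). Turning tumour 11 gave 5 lower calls among the 10, Pak4, Akt2, Pik3c2a, Inpp5f and Pak1, at adjusted p of 0.00266, 0.00319, 0.00423, 0.0320 and 0.0371. On the whole chromosome that turn gave 239 lower calls among 557 tested genes. Pik3c2a encodes a class II phosphoinositide 3-kinase and Inpp5f a phosphoinositide phosphatase. The highest tested member was the receptor tyrosine kinase Axl at -0.067 ± 0.19, which was not called. The 10 tested members had a median of -0.14, against -0.12 for all tested genes of the chromosome.

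Among cell cycle genes and genes amplified as oncogenes in human breast cancer, 13 of 16 had a probe and 6 were tested. Of these 2 were called lower and 4 were not called, against 21.4% called lower over all tested genes of the chromosome. The spindle pole protein gene Numa1 averaged -0.18 ± 0.11 (SD, n = 11, adjusted p = 0.0212), with a lowest value of -0.33 in tumour 7, a median of -0.19 and a highest of 0.095 in tumour 11. The chloride channel gene Ano1, with 16 probes, was below 0 in all 11 tumours, from -0.39 in tumour 1 to -0.025 in tumour 11 (mean -0.15 ± 0.12, adjusted p = 0.0368). Its call was lost in 8 of the 11 fits that leave out 1 tumour, and that of Numa1 without tumours 3 and 6, at 0.0531 and 0.0506. Mki67, the gene of a proliferation marker, averaged -0.089 ± 0.15, the cortactin gene Cttn -0.069 ± 0.15, and Ppfia1, the highest, -0.060 ± 0.21, and none of the 3 passed. Turning tumour 11 gave 3 lower calls among the 6, Cttn (-0.12, adjusted p = 0.0302) beside Numa1 and Ano1. The same turn gave 239 among all 557 tested genes of the chromosome. Ccnd1 and Ccne1, the cyclin genes, have 1 probe each and were not tested, with means of -0.079 and -0.26. The median of the tested members was -0.079.

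Of 20 tumour suppressor, apoptosis and DNA repair genes, 17 had a probe and 9 were tested. None was called in limma, against 119 of 557 tested genes over the chromosome. An unadjusted p below 0.05 was found for 5 of the 9, against 356 of the 557. In the fit with tumour 11 turned 3 of the 9 were called lower, against 239 of 557 on the chromosome. They were Tsg101 (-0.18, adjusted p = 0.00485), Palb2, the gene of a partner of BRCA2 (-0.20, 0.00518), and Chd2 (-0.18, 0.0130). The lowest was Chd2, a chromatin remodeller, at -0.15 ± 0.17 (SD, n = 11, adjusted p = 0.0745). Tsg101, a component of the endosomal sorting machinery, averaged -0.15 ± 0.16 (adjusted p = 0.0616). The DNA ligase gene Lig1 averaged -0.15 ± 0.22 and the repair scaffold gene Xrcc1 -0.14 ± 0.14. The DNA helicase gene Blm was the highest at -0.054 ± 0.15. The median of the 9 was -0.13.

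The imprinted genes lie in clusters at the start, the middle and the end of the chromosome. Of 23 listed, 17 had a probe and 7 were tested, with 1 called lower and 6 not called. Over the chromosome 21.4% of the tested genes were called lower, and 239 of 557 with tumour 11 turned. In the fit with tumour 11 turned 5 of the 7 were called lower, at adjusted p of 0.00493 for Nap1l4, 0.00506 for Usp29, 0.0115 for Ube3a, 0.0362 for Osbpl5 and 0.0429 for Snrpn. As labelled, Ube3a, a ubiquitin ligase gene next to Snrpn, averaged -0.17 ± 0.16 (SD, n = 11, adjusted p = 0.0434), from -0.46 in tumour 7 to 0.057 in tumour 11, and lost its call in 9 of the 11 fits that leave out 1 tumour. Snrpn itself, a gene of a splicing component, averaged -0.15 ± 0.17 (adjusted p = 0.0782). Usp29, in the proximal Peg3 domain and with 27 probes, averaged -0.17 ± 0.17 (adjusted p = 0.0528). At the distal end Nap1l4 averaged -0.16 ± 0.17 and Osbpl5, the highest, -0.12 ± 0.11. The means of the tested imprinted genes ran from -0.17 to -0.12.

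The receptor clusters hold 43 names, all with a probe, of which 8 were tested, 2 were called lower and 6 were not called. Over all tested genes of the chromosome 21.4% were called lower, and 239 of 557 with tumour 11 turned. Probes for receptor genes in such clusters can bind near-identical copies, so their values are uncertain. The vomeronasal receptor gene Vmn2r61 averaged -0.30 ± 0.24 (SD, n = 11, adjusted p = 0.0205), from -0.58 in tumour 7 to 0.22 in tumour 11, with no call left without tumour 3 (adjusted p = 0.0521). Vmn2r77 averaged -0.29 ± 0.33 (adjusted p = 0.0465), a call that was lost in 10 of the 11 fits that leave out 1 tumour. Its neighbour Vmn2r78 averaged -0.26 ± 0.30 and Vmn2r79 -0.12 ± 0.21, and neither passed. With tumour 11 turned 5 of the 8 were called lower, Vmn2r78 (-0.33, adjusted p = 0.00129), Vmn2r79 (-0.18, 0.0110) and Vmn2r57 (-0.15, 0.0471) beside Vmn2r61 and Vmn2r77. The highest, Vmn2r56, averaged 0.024 ± 0.29. The 14 kallikrein genes have too few probes to be tested, and their means ran from -0.38 to 0.29.

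The deepest single genes were Ccdc81, a gene of a coiled-coil protein, and Ethe1, Apbb1 and Zc3h4. Ethe1 encodes a mitochondrial enzyme of sulfide breakdown, Apbb1 an adaptor that binds the amyloid precursor protein, and Zc3h4 a zinc finger protein that acts on non-coding transcription. These 4 and Strn4, a scaffold subunit of a phosphatase complex, have the 5 lowest means among the tested genes of the chromosome, and each has 3 probes. The mean of Ccdc81 was the lowest of all 9377 genes. Their depth is thus a description of chosen genes. Ccdc81 read -1.18 in tumour 9, -0.997 in tumour 7 and -0.81 in tumour 4, against a median of -0.26 and a highest value of -0.082 in tumour 10 (mean -0.42 ± 0.39, SD, n = 11). It was below 0 in all 11 tumours. Ethe1 read -0.68 in tumour 9, -0.63 in tumour 7 and -0.60 in tumour 4, with 0.12 in tumour 11 (mean -0.35 ± 0.24). Apbb1 had its lowest values, -0.65 and -0.62, in tumours 9 and 7, its median at -0.42 and its highest value, 0.36, in tumour 11 (mean -0.35 ± 0.27). Zc3h4 read -0.71, -0.62 and -0.61 in tumours 7, 4 and 9, had its median at -0.27 and was highest in tumour 10 at -0.053 (mean -0.34 ± 0.21). Strn4 averaged -0.34 ± 0.22, with its lowest value, -0.78, in tumour 9.

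Tumours 4 and 9, whose chromosome 7 lay near 0, had with tumour 7 the 3 lowest values of Ccdc81, Ethe1 and Zc3h4. In tumour 1 Ccdc81 read -0.29 and Zc3h4 -0.28, against -0.37 for the chromosome.

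The rest of the same 1 Mb bin did not share this depth. These genes have the lowest means of the chromosome, a choice that favours values below their neighbours. The differences and counts here are therefore a description. Ccdc81 averaged -0.42, against -0.13 ± 0.14 for the other 63 probes of its bin, and was below them in 8 of 11 tumours. Ethe1 averaged -0.35, against -0.13 ± 0.14 for 96 neighbouring probes, and was below them in 10 tumours. Apbb1 averaged -0.35, against -0.12 ± 0.13 for 87 neighbours, and was below them in 10 tumours. Zc3h4 averaged -0.34, against -0.13 ± 0.14 for 60 neighbours, and was below them in 9 tumours.

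**Figure D4:**
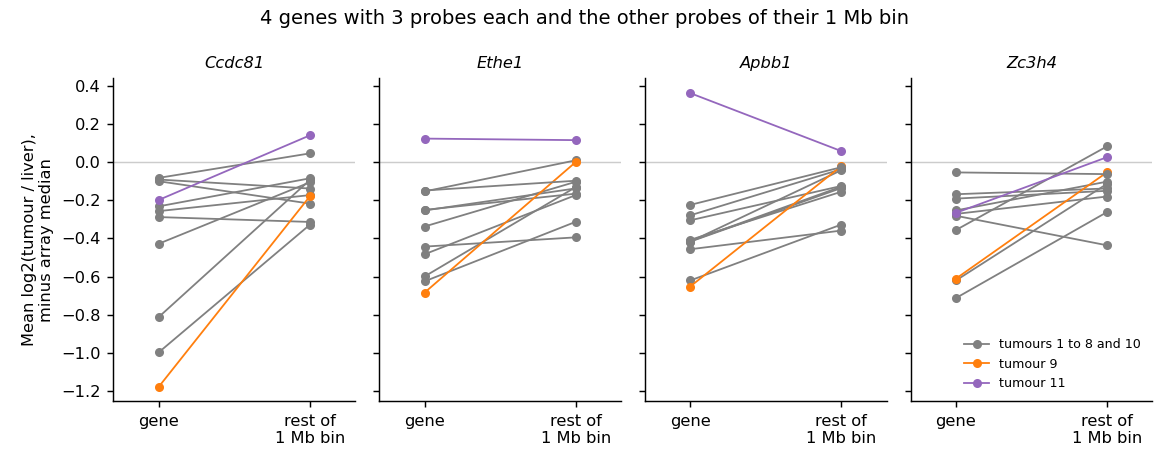
Mean log2 ratio of tumour over liver, minus the array median, of 4 genes with 3 probes each (left points) and of the other probes in their 1 Mb bin (right points). Each line is 1 tumour, with tumour 9 in orange and tumour 11 in purple. The gene values reach -1.18 while the neighbours lie between -0.44 and 0.14.

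The 3 probes of each gene differed from each other. In Ccdc81 the probes averaged -0.073, -0.75 and -0.45, in order of position. The second of them, printed above, read -2.26 in tumour 9, -1.89 in tumour 7 and -1.79 in tumour 4, and 0.086 in tumour 10. In Ethe1 the probes averaged -0.10, -0.84 and -0.11, in Apbb1 -0.48, -0.46 and -0.10, and in Zc3h4 -0.38, -0.20 and -0.45. The lowest probe was dim in all 4 genes, with a brightness of -2.16 in Ccdc81, -2.14 in Ethe1, -0.57 in Apbb1 and -1.03 in Zc3h4. With the fit on probe brightness the 4 genes averaged -0.35, -0.30, -0.32 and -0.28. When probes had to be well above background in both channels on all arrays, Apbb1 alone of the 4 kept 3 probes, at -0.36. The part of brightness in their depth was not tested.

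Gene means were spread more widely where fewer probes stood behind them. The 165 genes with 3 probes had means from -0.42 to 0.15 with an SD of 0.098 between genes, and the 118 genes with 13 or more probes had means from -0.19 to -0.040 with an SD of 0.031. Their medians were -0.12 and -0.12. The highest genes also have 3 probes each. They were Tubgcp2, a subunit of the microtubule nucleating complex, at 0.15 ± 0.30, Ap2a1, a clathrin adaptor subunit, at 0.13 ± 0.35, a cDNA that the array names AK021007 at 0.13 ± 0.17, and 2 transcripts without a symbol, and none of the 5 passed.

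Loss calls along the chromosome were made in each tumour alone, from segments of at least 10 probes with a mean of -0.2 or lower. There were 39 loss segments, with 17 in tumour 1, 7 in tumour 8, 6 in tumour 7, 4 in tumour 2, 2 each in tumours 3 and 4 and 1 in tumour 11, and tumours 5, 6, 9 and 10 had none. Tumours 1 and 7 were covered almost whole, and tumour 2 over 11.1% of the probes, namely 3131659 to 13786936, 13850723 to 17039317 and 35748899 to 51178720 and a short segment. Thus 85.0% of the probes lay in loss calls of 2 tumours, 12.8% in those of 3 and 1.11%, 109 probes, in those of 4. The stretches shared by 4 tumours were chosen by these calls, and their values are a description.

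The first is chr7:3131659-3326916, 20 probes at the start of the array's coverage with Speer9-ps1, AU018091, Myadm and Prkcc among 7 names. Prkcc encodes a protein kinase C of neurons. The stretch was called lost in tumours 1, 2, 4 and 7, where it averaged -0.50, -0.21, -0.41 and -0.36, against -0.37, -0.16, -0.032 and -0.32 for the rest of chromosome 7. In tumours 3, 5, 6, 8, 9 and 10 it averaged -0.22, -0.13, -0.13, -0.12, -0.25 and -0.065, and in tumour 11 it averaged 0.54. Of the 4 tumours with the call, the stretch differed most from the rest in tumour 4, by -0.38, and by -0.13, -0.058 and -0.040 in tumours 1, 2 and 7. All 20 probes were below 0 in tumours 1 and 7, against 18 in tumour 2 and 15 in tumour 4. Its last probe, in Prkcc and printed above, read -0.98 in tumour 4, -2.14 in tumour 9 and 1.83 in tumour 11, with a brightness of -2.43.

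As a whole Prkcc averaged -0.33 ± 0.39 (SD, n = 11), from -0.82 in tumour 9 to 0.61 in tumour 11, and did not pass (adjusted p = 0.0514, and 0.000826 with tumour 11 turned). The stretch was dimmer, at a mean brightness of -0.45, than the rest of the chromosome at -0.13. With the fit on probe brightness tumour 4 read -0.30 there, against -0.0053 for the rest, and tumours 1, 2, 4 and 7 still had the call. Without dim probes, and with normexp background correction, tumours 1, 2 and 7 had it.

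The second is chr7:35748899-35839346, with 9 probes of Pepd, the gene of a peptidase of proline dipeptides, and Cebpg, a transcription factor gene. It was called lost in tumours 1, 2, 7 and 11, at -0.36, -0.13, -0.30 and -0.49, against -0.37, -0.16, -0.32 and 0.016 for the rest of chromosome 7. In tumours 1, 2 and 7 it was thus no lower than the rest, and tumour 2 has the call from a longer segment. Tumours 4, 5 and 9 were higher than their chromosome there, at 0.24, 0.20 and 0.32, against -0.033, -0.0053 and -0.026 for the rest. Tumour 4 had a gain call of 0.27 over chr7:35588184-35833235, the one gain on the chromosome, while tumour 11, on the same slide, had a loss of -0.44 over 35493861 to 35839346. With tumour 11 turned its value there is a gain, and tumours 1, 2 and 7 have the loss. The same 3 have it with the fit on probe brightness or on GC content. Without spots whose log ratio is exactly 0, or with the authors' own log2 ratios, tumours 1, 7 and 11 have the call and tumour 2 loses it. The 12 probes of Pepd averaged -0.021 ± 0.27, or 0.072 with tumour 11 turned.

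The third is the longest, chr7:37359310-38770298, with 80 probes of the zinc finger genes Tshz3 and Zfp536 and 2 other names. It was called lost in tumours 1, 2, 3 and 7, at -0.42, -0.23, -0.25 and -0.31. The rest of chromosome 7 read -0.37, -0.16, -0.16 and -0.32 in these tumours, so tumour 7 was no lower in the stretch. Tumours 1, 2 and 7 have the call from longer segments of 31.6, 15.4 and 18.9 Mb. Only tumour 3 has a segment with the bounds of this stretch. Tumour 6 had -0.22 and tumour 8 -0.18 there without a call, and tumours 4, 5, 9, 10 and 11 read 0.014, -0.0048, 0.012, -0.058 and -0.073. The brightness of the stretch was -0.010, against -0.13 for the rest. Tshz3, with 8 probes, averaged -0.21 ± 0.20 (SD, n = 11, adjusted p = 0.0365, and 0.0997 with tumour 11 turned), and its call was lost without tumour 1, 2, 3, 6, 7 or 8. Zfp536, with 29 probes, averaged -0.14 ± 0.13 (adjusted p = 0.0532), and was called lower with tumour 11 turned (-0.13, adjusted p = 0.0417). With the fit on probe brightness tumours 1, 2 and 7 had the call on the stretch. Without spots whose log ratio is exactly 0, tumours 1, 3 and 7 had it.

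Of the 39 loss segments 17 were under 1 Mb. In tumours 1 and 7, with 5 of them, the rest of the chromosome was largely called lost as well, and the other 12 were in tumours 2, 3, 4, 8 and 11, with 7 in tumour 8, which had no longer loss segment. The deepest was in tumour 1, at chr7:148691840-148785987, where 11 probes of Chid1, the clathrin adaptor gene Ap2a2 and a cDNA averaged -1.03 ± 0.26 (SD over probes), against -0.37 for the rest of the chromosome. The probes ran from -1.43 to -0.52. In the other 10 tumours the same probes averaged between -0.41 in tumour 7 and 0.073 in tumour 11. Tumour 3 had -0.39 over chr7:108022236-108319539 with the nucleotide receptor genes P2ry6 and P2ry2, against -0.33 in tumour 7, -0.38 in tumour 1 and between -0.15 and 0.078 in the other 8.

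A stretch at chr7:55430416-55664873, with 14 probes and the Mas-related receptor gene Mrgprb8, was called lost in tumours 1, 2 and 8 at -0.50, -0.40 and -0.35, and tumour 3 had -0.29 there without a call. Tumour 7, lost over most of the chromosome, read -0.18 there and had no call. Tumours 1, 7 and 8 shared a loss at chr7:111513930-111683983 with Trim30 at -0.56, -0.45 and -0.40, where the probes had a mean brightness of -0.76. Tumours 3 and 2 had -0.36 and -0.29 there without a call, and the others read between -0.20 and -0.022. Tumours 1, 4 and 7 shared a loss at chr7:123363494-124235516 with Pik3c2a at -0.40, -0.25 and -0.41. Tumour 9 read -0.43 there without a call, tumour 11 read 0.33, and the mean brightness was -0.50. With the fit on probe brightness tumours 1, 4 and 7 averaged -0.40, -0.12 and -0.33 there, so tumour 4 lay above the loss threshold of -0.2. Tumours 9 and 11 then read -0.20 and 0.17. As a gene Pik3c2a averaged -0.15 ± 0.28 (SD, n = 11, adjusted p = 0.247, and 0.00423 with tumour 11 turned).

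Gene-dense bins did not differ from gene-poor bins beyond the spread between tumours. A bin was taken as dense with 7 or more gene names, the genome-wide median, which gave 87 dense and 51 poor bins on chromosome 7. Dense bins averaged -0.37 in tumour 1, -0.32 in tumour 7 and 0.040 in tumour 11, against -0.38, -0.30 and -0.0068 for poor bins in the same tumours. The difference was lowest in tumour 4 at -0.073 and tumour 9 at -0.061, and highest in tumour 11 at 0.047. It averaged -0.0094 ± 0.036 (SD, n = 11, exact two-sided sign-flip permutation test, p = 0.409, adjusted p = 0.499 over 20 chromosomes), with 5 tumours below 0 and 6 above. No chromosome passed this test (0%), and 3 had an unadjusted p below 0.05. With tumour 11 turned the difference was -0.018 (adjusted p = 0.335). Across the 138 bins the bin mean correlated at -0.24 with gene names per bin, -0.32 with probes per bin and 0.38 with bin brightness. In single tumours the correlation with gene names ran from -0.55 in tumour 10 and -0.48 in tumour 4 to 0.22 in tumour 8. The bins share their arrays and are not replicates, and these correlations were not tested. The call was made in 53 of 87 dense bins (60.9%) and in 21 of 51 poor ones (41.2%), which have medians of 86 and 52 probes and medians of the bin means of -0.12 and -0.12.

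Bright probes read higher than dim ones in 9 of 11 tumours. The chromosome has 4655 probes at or above the genome-wide median brightness and 5178 below it. Bright probes averaged 0.30 in tumour 9, 0.14 in tumour 5, 0.13 in tumour 4 and -0.20 in tumour 7, against -0.32, -0.14, -0.18 and -0.42 for dim probes. Tumour 11 had the opposite order, with bright probes at -0.24 and dim probes at 0.25. In tumours 1, 2 and 6 the 2 classes were close, at -0.36, -0.15 and -0.14 for bright probes, against -0.38, -0.16 and -0.13 for dim ones. Bright minus dim averaged 0.10 ± 0.27 (SD, n = 11, exact two-sided sign-flip permutation test, p = 0.242, adjusted p = 0.300 over 20 chromosomes), and 0 of the 20 chromosomes passed, adjusted or not.

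The difference passes with tumour 11 turned (mean 0.19, adjusted p = 0.00617) and without tumour 11 (mean 0.16, adjusted p = 0.0123). Tumour 11 has the one large value of opposite sign, -0.49, so turning or dropping it favours this outcome. The turn was chosen from these same data, so these passes are no support. The difference is not particular to chromosome 7, since the means of the 20 chromosomes lay between 0.086 and 0.12. By slide it averaged 0.046 ± 0.025 on slide 1 (SD, n = 3), 0.16 ± 0.46 on slide 2 (n = 4) and 0.089 ± 0.13 on slide 3 (n = 4).

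**Figure D5:**
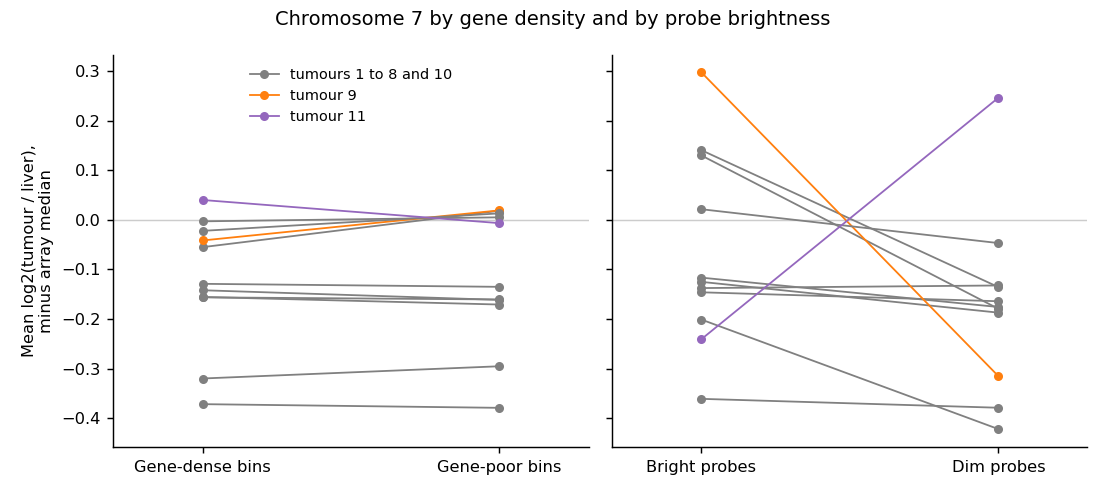
Mean log2 ratio of tumour over liver, minus the array median, on chromosome 7. Left, gene-dense and gene-poor bins; right, bright and dim probes. Each line is 1 tumour, with tumour 9 in orange and tumour 11 in purple. The dense and poor values of a tumour differ by at most 0.073, while bright minus dim runs from -0.49 in tumour 11 to 0.61 in tumour 9.

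Brightness also moved with the calls on genes. The gene mean and the gene's brightness correlated at 0.49 across 557 genes, which share the arrays and are not replicates, and the correlation with GC content was 0.11. In single tumours the correlation with brightness was highest in tumours 9 and 5, at 0.67 and 0.64, and below 0 in tumours 6 and 11, at -0.079 and -0.50. Of the brighter 279 genes 37 were called lower (13.3%), against 82 of the dimmer 278 (29.5%), with median gene means of -0.10 and -0.14. With the fit on brightness 120 genes were called lower, 92 of them among the 119. Its part in the calls on chromosome 7 was not tested beyond this.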

How the data were processed

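The deposited scanner files hold, per spot, processed intensity of both channels, background-subtracted and dye-normalized (linear) by the authors' software, raw median intensity, and a log10 ratio of red over green, per the file headers. The software was Agilent Feature Extraction 10.5.1.1, or 11.0.1.1 for tumours 4, 7, 9 and 11, per the file headers, and Partek, per the submitters' processing notes. A deposited value table holds the authors' log2 ratios per probe, with column medians from -0.0490 to 0.0213 and no centring stated. Positions are on mm9.

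The log2 of processed red over green was averaged over the spots of a probe, outlier spots left out, and the array median subtracted (174305 spots, 10081 on chromosome 7). Spots not well above background made up 0.00992% to 13.4% of the chromosome 7 spots of an array. Chromosome means and within-chromosome differences were tested by exact sign-flip over 2048 sign patterns (smallest p 0.000977), bins and genes by limma 3.58.1 (R 4.3.3), both with Benjamini-Hochberg adjustment, and segments were found by optimal partitioning (at least 5 probes, with a penalty per break of 2 noise variances multiplied by the log of the number of probes). Work used Python 3.11.15, numpy 2.4.6 and pandas 2.3.3. Tests were checked on simulated data: of 1 Mb bins lowered by 0.1, 46.3% were called, and of genes lowered by 0.2, 49.3% (9377 genes). The simulated bins and genes varied independently, while those of chromosome 7 share each tumour's chromosome mean. These rates therefore do not describe the calls on chromosome 7. Of 50 simulated chromosome 7 means each, 6% were called when lowered by 0.1 and 80% when lowered by 0.2. The normexp alternative used median signals, since 4 arrays have no mean signal.

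Genes were named by rule: 4 given genes, the 5 lowest and 5 highest tested genes, up to 12 genes in the stretches shared by most calls, and per list the 4 lowest and the highest of the tested members. Ccnd1, Ccne1, Pik3c2a, Inpp5f, Palb2, Vmn2r57 and genes of short losses or single bins were named after their values were seen. The members, lists and tests were chosen with earlier results of these data known. Each tumour comes from its own animal, per the labels.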

Additional observations from a re-analysis of the deposited data

How the results depend on the processing

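The chromosome 7 mean stayed below 0 in all settings run. It missed the threshold without dim probes (-0.12, adjusted p = 0.0911), with the median over probes (-0.12, 0.0521) and with the brightness fit chosen after seeing the data (-0.11, 0.143). Leaving out 1 tumour gave -0.14 to -0.098. The 74 called bins became 48 when centred on the mode, 116 in bins of 0.5 Mb, 40 in bins of 2 Mb, 0 with a minimum mean of 0.2 and 21 to 95 when 1 tumour was left out. The 119 called genes became 239 with tumour 11 turned, 47 when centred on the mode, 79 with at least 5 and 198 with at least 1 probe per gene (with 7 higher), 286 with the slide as a random block (with 1 higher), 48 with a minimum mean of 0.2, 296 without tumours 9 and 11 (chosen after seeing the data) and 18 to 265 when 1 tumour was left out. With the slide as a random block the slide correlation over genes was estimated at -0.11, from 3 slides. A value below 0 narrows the SE of a mean, so the larger count of genes there is no added support. Gene-dense minus gene-poor kept its sign and missed the threshold in all settings run (-0.015 to -0.0030 when 1 tumour was left out). The value of bright minus dim probes of chromosome 7 passed with tumour 11 turned (0.19) and without tumours 9 and 11 (0.11). Both settings turn or drop the array with the large opposite value and were chosen from these data. These passes are therefore no support. Bright minus dim ran from 0.054 to 0.16 when 1 tumour was left out. After the brightness fit it was -6.37e-05, by the construction of that fit.

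Whole losses numbered 1 to 2, and the most tumours in a call 3 to 4, when 1 tumour was left out. A loss threshold of -0.15 gave up to 7 tumours sharing a call and 66 loss segments. The 39 loss segments became 22 with normexp, 22 without dim probes, 201 with the penalty halved, 8 with it doubled and 22 to 39 when 1 tumour was left out. Among named genes, Vmn2r56 changed sign with the brightness fit (-0.10), without tumours 9 and 11 (-0.038) and when 1 tumour was left out (-0.041 to 0.061), and Pepd with tumour 11 turned (0.072) and when 1 tumour was left out (-0.067 to 0.028). Where no reason is given, the cause was not tested. No paired analysis was possible because there is 1 group, in which each tumour is already set against its own liver. Noise limits short calls in tumours 9 and 11.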
